A study of Homo sapiens with 9 samples.

Results

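The response of MDA-MB-231 cells to 10 mM 2-deoxy-D-glucose (2-DG) was taken from 6 of the 9 RNA-seq libraries of the series, 3 from cells kept for 24 h at 10 mM 2-DG and 3 from cells kept for 24 h at 0 mM 2-DG, which are the control. The groups were taken from the treatment labels, and the response was described over all 16572 genes that passed a filter on low reads. MDA-MB-231 is an established human cell line of triple-negative breast cancer (TNBC), labelled wild type (WT) in every group. The other 3 libraries came from cells at 20 mM 2-DG and shared one model fit with these 6, so that all 9 set the estimate of the spread. The study's methods name phosphate-buffered saline as the control treatment. The labels call the 3 libraries of a group separate samples and do not say whether they came from separate cultures, so the p-values measure the spread between these libraries, which may be technical.

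2-DG is a glucose analogue that enters cells through the glucose transporters and is phosphorylated by hexokinase, after which it is a poor substrate for the next enzyme of glycolysis. It also resembles mannose and can be built into the lipid-linked sugar chains from which N-glycans are made, so that proteins folding in the endoplasmic reticulum (ER) may lack complete glycans. Cells answer misfolded ER proteins with the unfolded protein response (UPR), in which the sensors IRE1, PERK and ATF6 switch on chaperones, degradation of ER proteins and, through the transcription factors ATF4 and CHOP, genes of amino acid supply.

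The total of reads counted on genes, recovered from the deposited values, was between 34300991 and 36650036 in the control libraries and between 34374980 and 40843638 at 10 mM 2-DG, so that 1 read on a gene of 1 kb was worth 0.0245 to 0.0292 FPKM (reads per kb of gene length, scaled to the reads counted on all genes). Pearson correlations of log2(FPKM + 1) between replicates were 0.994 to 0.995 in the control and 0.989 to 0.994 at 10 mM, lowest for 10 mM replicates 1 and 2. Genes in the upper tercile of length deviated from their group mean by a median of 0.06 in 10 mM replicate 1 and -0.06 in replicate 2, and by -0.05 and 0.04 in control replicates 1 and 2. Mitochondrially encoded genes took 7.15% to 7.87% of the reads in the control and 7.70% to 9.75% at 10 mM. Of 10 genes that mark MDA-MB-231 or mesenchymal cells, 9 reached 1 FPKM in these libraries, with summed levels of 1116 to 1138 FPKM in the control and 974 to 996 FPKM at 10 mM. ESR1 and PGR, the hormone receptor genes that TNBC lacks, stayed under 0.03 FPKM, all 5 basal keratin and TP63 markers stayed under 1 FPKM, and 5 of 6 leukocyte markers, PTPRC and CD3E among them, did too. The luminal list, in which 4 of 10 markers (KRT8, KRT19, ERBB2 and CDH1) fell, summed to 545 to 632 FPKM in the control and 396 to 488 FPKM at 10 mM. Of the 10 MDA-MB-231 or mesenchymal markers 4 (CD44, S100A4, TGFBI and CAV1) fell as well, and 0 rose in either list.

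At 10 mM 2-DG, 4914 of the 16572 genes (29.7%) passed limma's moderated test on log2(FPKM + 1) at a Benjamini-Hochberg adjusted p of 0.05, and "rose" and "fell" are used below only of genes that passed it. Of all genes tested, 12.1% rose (2011 genes) and 17.5% fell (2903 genes), which is the background against which each gene group is read. Rises made up 40.9% of the calls, and 51.6% when the libraries were scaled by their upper quartile (2481 rose and 2324 fell), so the balance of directions depends on the scaling. The median log2 fold change of all genes was -0.01, and 0.02 under that scaling. The thresholds of the study are an absolute log2 fold change over 1 and p under 0.05 before adjustment. At these, 96 genes (0.579%) were DEGs with higher and 192 (1.16%) with lower expression. With a pseudocount of 0.1 in place of 1 these counts were 438 and 566, and with limma-voom on the recovered reads 730 and 857. The study used the thresholds with the DESeq2 package, so the counts here cannot be set against its own. Most changes were small. The median absolute log2 fold change of the genes that passed was 0.41, and among those at 1 FPKM or more the mean FPKM rose more than 2-fold in 186 genes and fell more than 2-fold in 370. Changes over 4-fold were seen in 19 and 16 genes. Of genes with a mean under 1 FPKM, 18.0% passed, against 46.1% of those between 10 and 100 FPKM, and the pseudocount of 1 understates the change of the former. Of 13113 protein-coding genes, 1629 rose and 2651 fell. In bulk RNA, fewer cells of a type and less RNA per cell cannot be told apart.

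**Figure D1:**
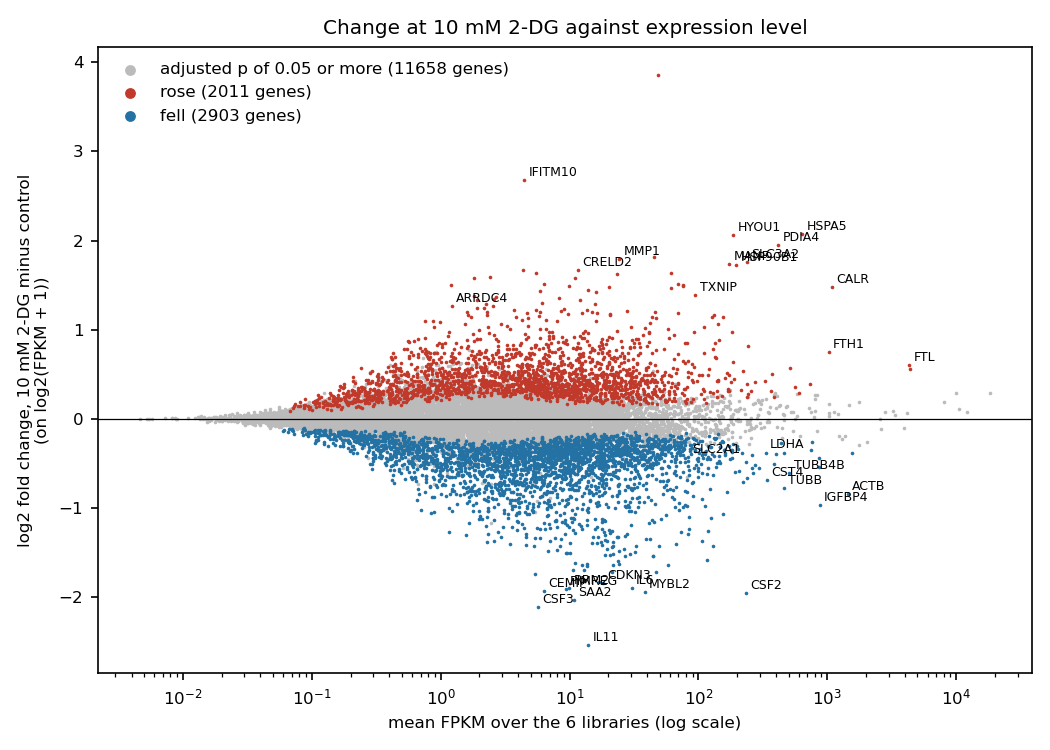
Each point is one of the 16572 genes tested, with its mean FPKM over the 6 libraries on a log axis and its log2 fold change at 10 mM 2-DG, red where it rose, blue where it fell and grey where the adjusted p was 0.05 or more. Labels mark the genes with the largest changes, those with the highest levels, and SLC2A1, LDHA, TXNIP and ARRDC4; the changes of genes under 0.1 FPKM lie close to 0 on this scale.

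The protein-coding genes with the largest changes or the highest levels described below were drawn only from genes that passed without overlap of the groups. The separation of the groups for these genes therefore follows from the choice and is no result. Among the 10 protein-coding genes with the largest rises, 6 encode chaperones or other proteins of the ER (HSPA5, HYOU1, PDIA4, MANF, HSP90B1 and CRELD2). The largest was that of IFITM10 (ENSG00000244242, chr11:1732410-1750591, minus strand, GRCh38 coordinates of GENCODE 29, as for the genes below), a member of the interferon-induced transmembrane protein family, which stood at 0.417, 0.621 and 0.353 FPKM in the control libraries and 8.72, 9.76 and 6.85 FPKM at 10 mM 2-DG. Its lowest 10 mM library was above its highest control library, an 18.2-fold rise of the mean (log2 fold change 2.68, SE 0.13, adjusted p = 1.53e-06). IFITM10 shares 1062 of its 4784 exonic bases with another gene of the same strand, AC068580.4, so reads there cannot be assigned with certainty. HSPA5 (ENSG00000044574, chr9:125234853-125241330, minus strand), which encodes BiP, the main chaperone of the ER lumen, stood at 249, 236 and 251 FPKM in the control libraries and 1054, 990.1 and 1059 FPKM at 10 mM 2-DG. It rose 4.22-fold (log2 fold change 2.07, SE 0.07, adjusted p = 4.56e-07). HYOU1, a large ER chaperone of the HSP70 family, stood at 72.1, 74.5 and 67.3 FPKM in the control libraries and 336, 265 and 303 FPKM at 10 mM 2-DG (log2 fold change 2.06, SE 0.09, adjusted p = 8.68e-07). PDIA4, a protein disulfide isomerase, stood at 178, 167 and 168 FPKM in the control libraries and 659.8, 656 and 668 FPKM at 10 mM 2-DG (log2 fold change 1.95, SE 0.06, adjusted p = 4.56e-07). The groups did not overlap for either gene, and the 10 mM libraries of PDIA4 differed by little from each other. MMP1, the interstitial collagenase, stood at 10.1, 9.50 and 11.3 FPKM in the control libraries and 36.1, 40.3 and 38.4 FPKM at 10 mM 2-DG (log2 fold change 1.79, SE 0.07, adjusted p = 8.68e-07). SLC3A2, the heavy chain of several amino acid transporters, stood at 111, 109 and 103 FPKM in the control libraries and 369.7, 405 and 327 FPKM at 10 mM 2-DG (log2 fold change 1.76, SE 0.08, adjusted p = 1.40e-06). All 3 treated libraries exceeded all 3 control libraries for both genes. MANF, HSP90B1 and CRELD2 rose by log2 fold changes of 1.74, 1.73 and 1.67. Exons of HYOU1 overlap 666 bases of a gene on the opposite strand, and whether reads were counted by strand is not given in the sources used here. A gene that was chosen after its values were seen, ENSG00000286966, has no name in the files and no entry in GENCODE 29. It stood at 5.57, 5.36 and 5.29 FPKM in the control libraries and 105.9, 96.5 and 74.8 FPKM at 10 mM, the largest log2 fold change of all genes tested (3.85).

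The 10 largest falls among protein-coding genes held 4 cytokine genes (IL11, CSF3, CSF2 and IL6) and 4 genes tied to the cell cycle (MYBL2, PIMREG, RRM2 and CDKN3). IL11 (ENSG00000095752, chr19:55364389-55370463, minus strand), a cytokine of the IL-6 family, stood at 26.6, 25.0 and 21.9 FPKM in the control libraries and 3.66, 3.48 and 3.07 FPKM at 10 mM 2-DG. The 10 mM libraries lay far under the control libraries, a 7.21-fold fall (log2 fold change -2.53, SE 0.11, adjusted p = 9.52e-07). CSF2 (ENSG00000164400, chr5:132073790-132076170, plus strand), which encodes the growth factor GM-CSF, was the most abundant of the 10 and stood at 400.1, 339 and 377 FPKM in the control libraries and 79.7, 102 and 106 FPKM at 10 mM 2-DG (log2 fold change -1.95, SE 0.11, adjusted p = 3.17e-06). IL6 stood at 48.8, 45.6 and 51.2 FPKM in the control libraries and 11.9, 11.5 and 13.3 FPKM at 10 mM 2-DG (log2 fold change -1.90, SE 0.08, adjusted p = 8.68e-07). No treated library of either gene reached the control range, as the choice of genes required. CSF3, which encodes G-CSF, stood at 10.2, 9.12 and 10.4 FPKM in the control libraries and 1.37, 1.41 and 1.82 FPKM at 10 mM 2-DG (log2 fold change -2.11, SE 0.10, adjusted p = 1.40e-06). SAA2, an acute-phase apolipoprotein, stood at 18.4, 17.6 and 18.2 FPKM in the control libraries and 2.60, 4.12 and 4.55 FPKM at 10 mM 2-DG (log2 fold change -2.03, SE 0.14, adjusted p = 9.27e-06), and 267 of its 2227 exonic bases are shared with the readthrough gene SAA2-SAA4. CEMIP, a hyaluronan-binding protein, stood at 9.19, 12.4 and 10.0 FPKM in the control libraries and 2.61, 1.71 and 1.81 FPKM at 10 mM 2-DG (log2 fold change -1.93, SE 0.14, adjusted p = 1.03e-05). These 3 genes also showed no overlap of the groups, again as the choice required. MYBL2 (ENSG00000101057, chr20:43667019-43716496, plus strand), a transcription factor of the S and G2 phases, stood at 65.0, 61.4 and 58.2 FPKM in the control libraries and 15.2, 14.5 and 16.4 FPKM at 10 mM 2-DG (log2 fold change -1.94, SE 0.08, adjusted p = 8.68e-07). RRM2, the small subunit of ribonucleotide reductase, stood at 16.2, 16.2 and 16.4 FPKM in the control libraries and 3.53, 3.11 and 4.40 FPKM at 10 mM 2-DG (log2 fold change -1.89, SE 0.11, adjusted p = 3.41e-06). PIMREG and CDKN3 fell by log2 fold changes of -1.91 and -1.84, again with every treated library under every control library. RRM2 shares 1077 of 5323 exonic bases with a gene on the same strand, and 428 of 2069 exonic bases of IL6 lie opposite another gene.

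**Figure D2:**
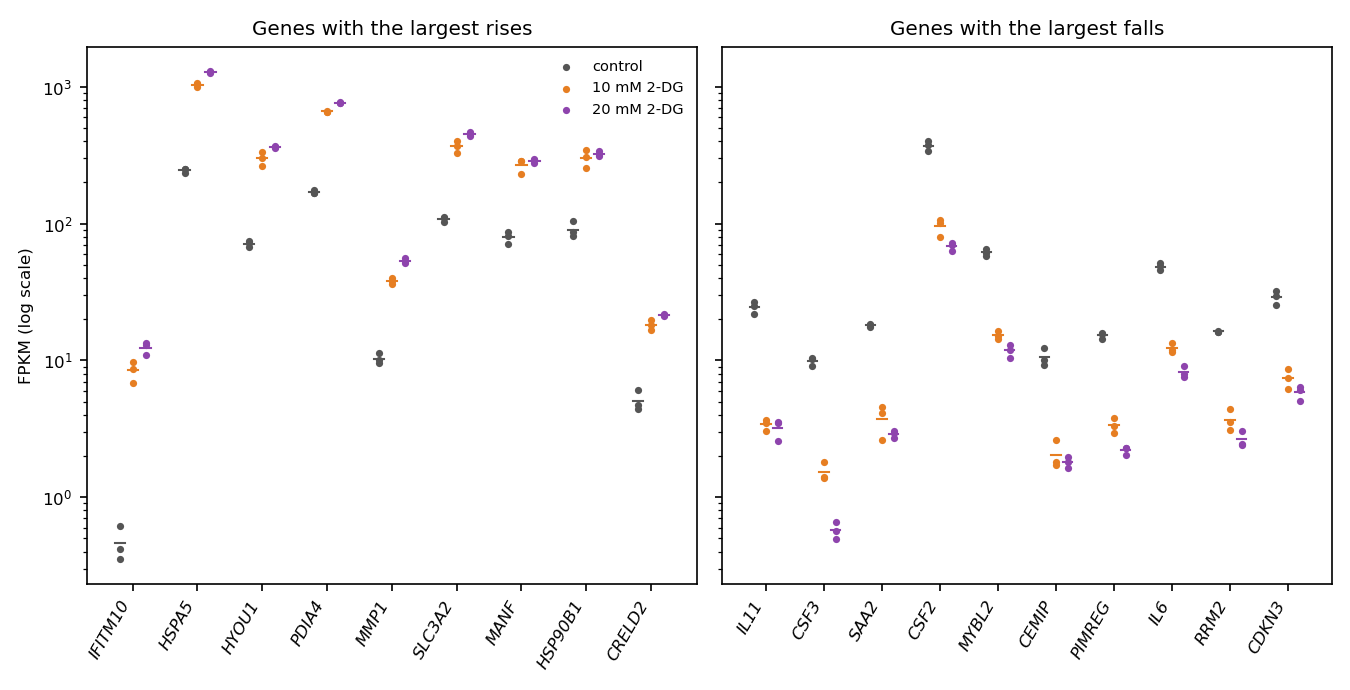
FPKM on a log axis in each library (points) and the group mean (bars) for 9 of the 10 protein-coding genes with the largest rises (left) and the 10 with the largest falls (right) at 10 mM 2-DG, in control, 10 mM and 20 mM libraries. The 3 control and the 3 libraries at 10 mM are separate for each of these genes, as the choice of genes required.

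Among abundant genes that changed by more than 0.58 on the log2 scale, the highest levels belonged to the ferritin chains, the iron store of the cell, and to the ER lumen. FTL, the ferritin light chain, stood at 3568, 3190.4 and 3523 FPKM in the control libraries and 4817, 5589 and 5265 FPKM at 10 mM 2-DG (log2 fold change 0.61, SE 0.15, adjusted p = 0.0134), and it no longer passed without control replicate 2 (adjusted p = 0.0575). FTH1, the heavy chain, stood at 806, 761 and 715 FPKM in the control libraries and 1194, 1297 and 1358 FPKM at 10 mM 2-DG (log2 fold change 0.75, SE 0.10, adjusted p = 0.000421), and 1267 of its 2030 exonic bases lie opposite exons of BEST1. CALR, which encodes calreticulin, a lectin chaperone of the ER, stood at 619, 559.5 and 549.8 FPKM in the control libraries and 1515, 1646 and 1672 FPKM at 10 mM 2-DG (log2 fold change 1.48, SE 0.09, adjusted p = 4.91e-06). All 3 genes were higher in every treated library, as were HSPA5 and PDIA4, which met the same rule, and the rule required this. On the falling side were cytoskeletal genes. ACTB, cytoplasmic beta-actin, stood at 1974, 1817 and 1767 FPKM in the control libraries and 1005, 1061 and 1023 FPKM at 10 mM 2-DG (log2 fold change -0.85, SE 0.09, adjusted p = 0.000114), and the tubulin genes TUBB and TUBB4B fell by log2 fold changes of -0.78 and -0.61. IGFBP4, a secreted binding protein of insulin-like growth factors, fell from 1155 ± 50.9 to 594 ± 70.0 FPKM (mean ± SD, n = 3, log2 fold change -0.97, SE 0.10, adjusted p = 8.48e-05), and the cystatin gene CST4 fell with a log2 fold change of -0.69. Actin, tubulin and ferritin genes have many near-identical pseudogenes, so reads could be shared with these copies.

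The 35 gene lists, which hold 900 distinct genes, differed widely in how many of their members rose or fell. The shares that rose were highest for ER chaperones and folding enzymes (80.0%), ATF4-CHOP targets (78.4%) and NRF2 targets (71.4%), and the shares that fell were highest for mitosis and kinetochore genes (98.1%), DNA replication (93.0%) and sterol synthesis (72.0%). Ribosomal protein genes were at the other end, with 1 of 52 past the test.

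**Figure D3:**
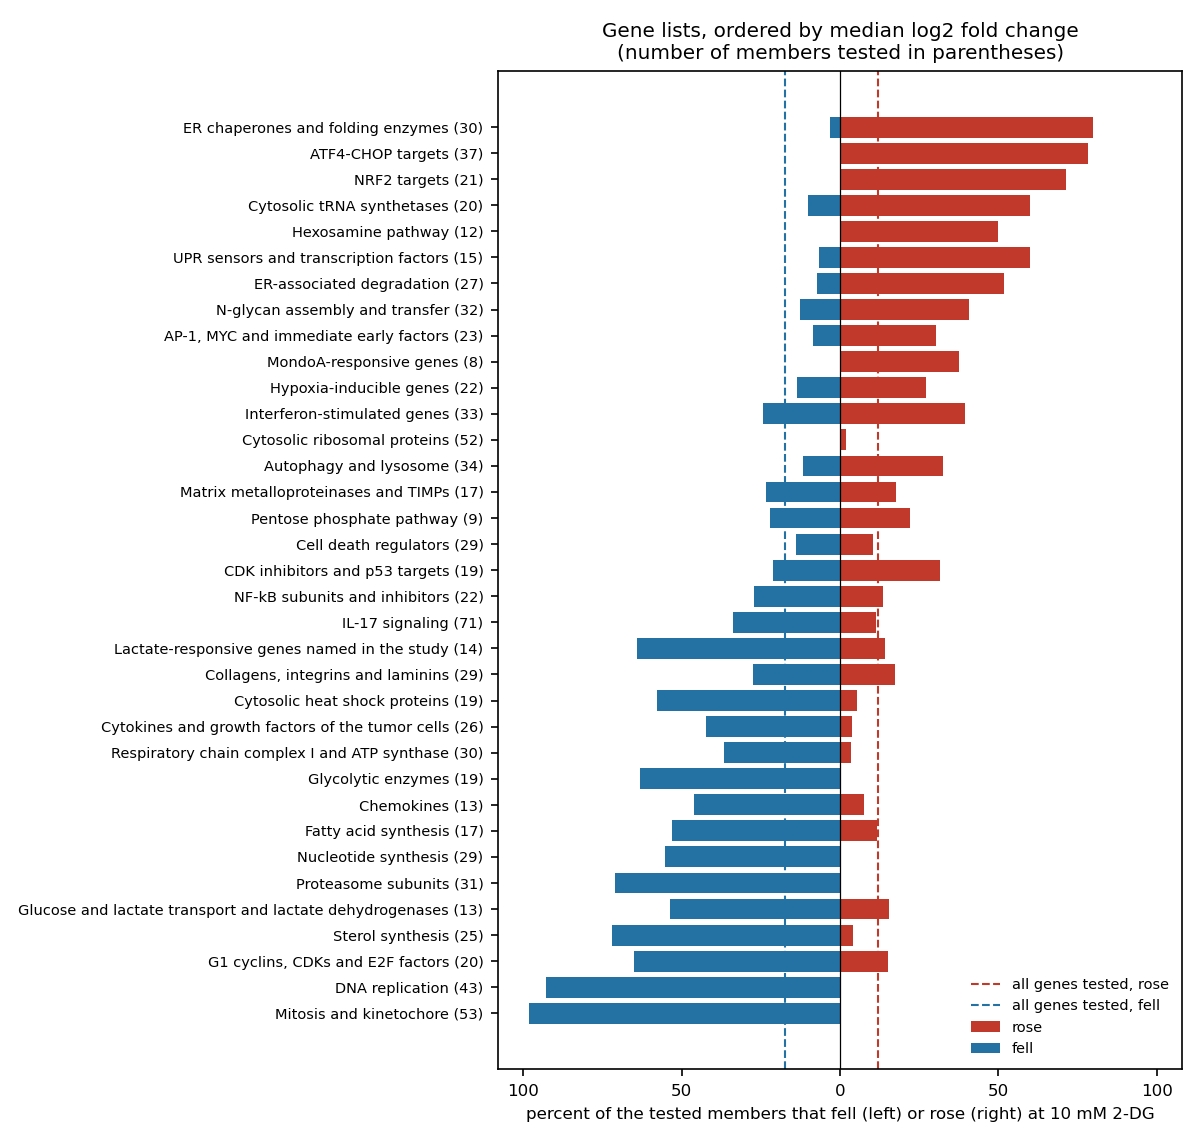
Percent of the tested members of each of the 35 gene lists that fell (blue, to the left) or rose (red, to the right) at 10 mM 2-DG, ordered by the median log2 fold change, with the number of members tested in parentheses. The dashed lines mark the shares of all genes tested, 17.5% that fell and 12.1% that rose.

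ER chaperones and folding enzymes rose almost as a group: of the 30 members tested, 24 rose and 1 fell, with a median log2 fold change of 1.00 against -0.01 over all genes. They took 0.930% to 0.975% of all reads in the control libraries and 2.72% to 2.94% at 10 mM. Beyond the genes named above, DNAJB9, a cochaperone of BiP, rose from 10.9 ± 1.28 to 35.7 ± 3.01 FPKM (mean ± SD, n = 3), SDF2L1 from 35.7 ± 7.68 to 103 ± 15.2 FPKM and the disulfide isomerase PDIA6 from 39.6 ± 0.637 to 114 ± 4.25 FPKM. The lectin chaperone CANX rose by a log2 fold change of 1.06 and the collagen-modifying isomerase P4HB by 0.85. The 2 ER oxidase genes differed, with ERO1B at 0.75 and ERO1A, which did not pass, at 0.02. FKBP7, an ER prolyl isomerase, was the 1 member that fell (log2 fold change -0.52, SE 0.07, adjusted p = 0.000608).

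The ER stress response element, to which ATF6 and the CCAAT-binding factor NF-Y are known to bind, was looked for on both strands of the RefSeq promoter windows (GRCh38.p14, 250 bases before to 50 bases after each start). It was found in 9 of the 37 windows of the 27 chaperone genes with an entry (24.3%) and in 27 of all 35116 windows (0.0769%). The CANX windows overlap and hold the same site, so the 9 windows are not independent. The genes with a match were HSPA5, HSP90B1, CRELD2, CALR, PDIA6, CANX and ERO1B, all of which rose, and 0 of the 23 windows of ER-associated degradation genes held it. A match describes the letters and not binding. The stretches upstream of 3 of the genes with the largest rises are shown with the match in capitals, HSPA5 (chr9:125241344-125241493, minus strand), HSP90B1 (chr12:103930190-103930409, plus strand, 2 matches, the second on the other strand) and CRELD2 (chr22:49918484-49918633, plus strand, on the other strand), each ending 1 base before the start.
HSPA5: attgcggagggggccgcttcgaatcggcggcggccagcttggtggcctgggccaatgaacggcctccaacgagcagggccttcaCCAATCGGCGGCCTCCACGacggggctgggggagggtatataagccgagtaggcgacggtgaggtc
HSP90B1: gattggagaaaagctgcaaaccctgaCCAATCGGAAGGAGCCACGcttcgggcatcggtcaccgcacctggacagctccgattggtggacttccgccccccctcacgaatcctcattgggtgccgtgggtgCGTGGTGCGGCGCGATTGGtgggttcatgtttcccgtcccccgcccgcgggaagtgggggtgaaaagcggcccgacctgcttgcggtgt
CRELD2: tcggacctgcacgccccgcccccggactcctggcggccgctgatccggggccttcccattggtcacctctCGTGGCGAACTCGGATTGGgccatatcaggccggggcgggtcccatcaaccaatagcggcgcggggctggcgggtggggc

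Genes that remove misfolded ER proteins had a smaller median change. For ER-associated degradation, of the 27 members tested, 14 rose and 2 fell, with a median log2 fold change of 0.29. HERPUD1, a membrane protein of the degradation complex, stood at 11.0, 10.4 and 9.34 FPKM in the control libraries and 30.4, 30.6 and 30.1 FPKM at 10 mM 2-DG (log2 fold change 1.48, SE 0.06, adjusted p = 8.68e-07), and SEL1L, which with the ligase SYVN1 forms the core of that complex, rose from 8.03 ± 1.55 to 23.8 ± 7.57 FPKM. SYVN1 itself rose by 0.80, and the p97 cofactor NPLOC4 fell by a log2 fold change of -0.52. For N-glycan assembly and transfer, of the 32 members tested, 13 rose and 4 fell, with a median log2 fold change of 0.19. The shares were 40.6% and 12.5%, against 12.1% and 17.5% of all genes, so falls were rarer than the background. The members that rose included subunits of the oligosaccharyltransferase, which moves the finished chain to the protein, namely RPN1 (0.74), STT3B (0.67), STT3A (0.53) and DDOST (0.44). Of the dolichol-linked steps, ALG2 (0.56) and ALG5 (0.52) were among the rises, and ALG6 (-0.39) and DPM1 (-0.39) among the 4 falls. Of these falls 2 were left without control replicate 3, and ALG6 also did not pass without 10 mM replicate 1. GFPT1 of the hexosamine pathway was the largest rise of the list. The falls in ER-associated degradation were 1 in place of 2 without control replicate 1, control replicate 3 or 10 mM replicate 3. For UPR sensors and transcription factors, of the 15 members tested, 9 rose and 1 fell, with a median log2 fold change of 0.29, which was 0.49 with a pseudocount of 0.1 and 0.54 with limma-voom. DDIT3, which encodes CHOP, stood at 29.7, 23.8 and 28.2 FPKM in the control libraries and 56.2, 77.0 and 59.0 FPKM at 10 mM 2-DG (log2 fold change 1.20, SE 0.12, adjusted p = 7.17e-05). XBP1, the target of the IRE1 endonuclease, rose from 29.1 ± 1.81 to 53.7 ± 2.96 FPKM, and ATF4 from 145 ± 6.81 to 227 ± 20.9 FPKM. The sensor genes themselves changed less than DDIT3. ERN1 (IRE1) was at 0.49 and did not pass without control replicate 1. EIF2AK3 (PERK) was at 0.24 and passed in no leave-out but that of 10 mM replicate 2. ATF6, at 0.21, passed only in that leave-out. MBTPS2, the second protease of ATF6, had the lowest value (-0.30) and passed only without 10 mM replicate 1. The single fall was that of MBTPS1, the protease that activates ATF6, and this count was 0 without control replicate 2 and 3 without 10 mM replicate 1.

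Targets of ATF4 and CHOP rose as a group, SLC3A2 by the most. For this list, of the 37 members tested, 29 rose and 0 fell, with a median log2 fold change of 0.79, and no leave-out brought the rises under 27. TRIB3, a pseudokinase induced by CHOP, stood at 34.1, 27.8 and 27.1 FPKM in the control libraries and 92.5, 101 and 88.7 FPKM at 10 mM 2-DG (log2 fold change 1.64, SE 0.09, adjusted p = 2.66e-06), with no overlap of the groups. The serine synthesis enzymes PHGDH and PSPH rose by 1.14 and 0.67 on the log2 scale, PSAT1 rose from 39.5 ± 1.76 to 113 ± 3.56 FPKM, and the mitochondrial serine enzyme SHMT2 rose from 78.3 ± 4.04 to 175 ± 11.5 FPKM. Among transporters, SLC7A11, which with SLC3A2 imports cystine, rose from 4.69 ± 0.660 to 15.3 ± 4.15 FPKM, SLC1A5, a glutamine carrier, from 80.6 ± 5.05 to 182 ± 13.8 FPKM and SLC7A5, the leucine carrier, from 78.4 ± 4.53 to 105 ± 9.01 FPKM. ADM2, a secreted peptide, rose by 1.63, and the glutathione-degrading enzyme CHAC1 by 1.21. Asparagine synthetase (ASNS) rose from a low level, with 0.362, 0.312 and 0.387 FPKM in the control libraries and 1.49, 0.990 and 1.17 FPKM at 10 mM 2-DG. DDIT4 (-0.23), ATF3 (0.30) and ATF5 (-0.02) were among the 8 members that did not pass, and DDIT4 fell without 10 mM replicate 2. For the cytosolic tRNA synthetases, which charge tRNAs with amino acids, of the 20 members tested, 12 rose and 2 fell, with a median log2 fold change of 0.33. WARS1, SARS1 and GARS1 rose by 1.19, 1.03 and 1.03. FARSB (-0.49) and QARS1 (-0.18) fell, and this count was 1 without control replicate 1, control replicate 2 or 10 mM replicate 3.

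Glycolytic enzymes fell or did not pass. For this list, of the 19 members tested, 0 rose and 12 fell, with a median log2 fold change of -0.27, but 6 fell without control replicate 1, 7 without 10 mM replicate 3, and 6 under median-ratio and 7 under upper-quartile scaling. HK2, the hexokinase isoform induced in tumors, stood at 19.8, 26.0 and 21.9 FPKM in the control libraries and 17.7, 11.1 and 12.8 FPKM at 10 mM 2-DG (log2 fold change -0.68, SE 0.15, adjusted p = 0.00668), whereas HK1 (0.07) did not pass. ALDOC fell from 5.49 ± 0.318 to 2.41 ± 0.402 FPKM, PGK1 from 135 ± 2.45 to 100.4 ± 7.24 FPKM and PGAM1 from 142 ± 6.62 to 104 ± 6.83 FPKM. The regulatory enzyme PFKFB3 had the highest value (0.20) and passed only without 10 mM replicate 2, where the list held 1 rise. For glucose and lactate transport and lactate dehydrogenases, of the 13 members tested, 2 rose and 7 fell, with a median log2 fold change of -0.34. SLC2A1, which encodes the glucose transporter GLUT1, stood at 98.3, 100.1 and 85.5 FPKM in the control libraries and 78.0, 70.3 and 62.6 FPKM at 10 mM 2-DG (log2 fold change -0.43, SE 0.09, adjusted p = 0.00526). SLC2A3, which encodes GLUT3, went the other way and rose from 11.2 ± 0.698 to 19.8 ± 1.08 FPKM. LDHA, the lactate dehydrogenase subunit that favors lactate formation, stood at 382, 364 and 386 FPKM in the control libraries and 276, 306 and 289 FPKM at 10 mM 2-DG (log2 fold change -0.38, SE 0.06, adjusted p = 0.00187), and the lactate exporter SLC16A3 fell from 75.9 ± 4.68 to 55.8 ± 8.49 FPKM. The largest fall of the list was that of SLC2A8, an intracellular transporter (-0.52). For SLC2A1 and LDHA each treated library was below each control library, yet the falls of the mean were 1.35-fold and 1.30-fold.

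TXNIP and ARRDC4 encode arrestin-like proteins that restrain glucose uptake, and both are classic targets of MondoA, a transcription factor that responds to hexose 6-phosphates, 2-DG 6-phosphate included. TXNIP (ENSG00000265972, chr1:145992435-145996600, minus strand) stood at 47.9, 50.4 and 58.0 FPKM in the control libraries and 142, 136 and 134 FPKM at 10 mM 2-DG (log2 fold change 1.39, SE 0.07, adjusted p = 2.66e-06). ARRDC4 stood at 0.215, 0.275 and 0.423 FPKM in the control libraries and 2.34, 1.85 and 2.24 FPKM at 10 mM 2-DG (log2 fold change 1.27, SE 0.10, adjusted p = 1.75e-05). The control libraries were the lowest for both genes without overlap. KLF10 also rose (0.89), while the other 5 members of this list, the MondoA gene MLXIP (-0.01) and its partner MLX (-0.13) among them, did not pass. A pair of E-boxes in tandem, searched on both strands, occurred in 1 of the 10 windows of the list, that of TXNIP, and in 20 of all 35116 windows (0.057%). The bases upstream of TXNIP (chr1:145996580-145996729, minus strand, RefSeq, GRCh38.p14) are shown with the pair in capitals.
TXNIP: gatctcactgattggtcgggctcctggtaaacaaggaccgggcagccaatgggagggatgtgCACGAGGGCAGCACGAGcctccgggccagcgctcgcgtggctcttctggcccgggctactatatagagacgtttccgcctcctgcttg

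The pathways that branch from glycolysis were mixed. For the hexosamine pathway, which makes the sugar donor for glycosylation, of the 12 members tested, 6 rose and 0 fell, with a median log2 fold change of 0.29. GFPT1, its rate-limiting enzyme, stood at 7.44, 9.12 and 9.27 FPKM in the control libraries and 26.1, 17.0 and 20.8 FPKM at 10 mM 2-DG (log2 fold change 1.20, SE 0.13, adjusted p = 0.000153), and its paralog GFPT2 did not pass (0.02). OGT and OGA, which add and remove O-linked N-acetylglucosamine, rose by 0.64 and 0.51, and the call for OGT was lost without control replicate 1 or 3. For the pentose phosphate pathway, of the 9 members tested, 2 rose and 2 fell, with a median log2 fold change of -0.02. Each count is 22.2% of the list, against 12.1% and 17.5% of all genes. PGLS, a lactonase, had the largest rise (0.37) and RPE, an epimerase, the largest fall (-0.53), and the 2 rises were 1 without control replicate 2 and 0 without control replicate 3.

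For sterol synthesis, of the 25 members tested, 1 rose and 18 fell, with a median log2 fold change of -0.41. ACAT2, which makes acetoacetyl-CoA, stood at 27.7, 26.0 and 25.9 FPKM in the control libraries and 9.95, 11.5 and 9.94 FPKM at 10 mM 2-DG (log2 fold change -1.27, SE 0.07, adjusted p = 3.17e-06). INSIG1, a target of the sterol regulator SREBP2, fell from 38.1 ± 2.07 to 21.8 ± 1.19 FPKM, and SQLE, squalene epoxidase, did not pass (-0.00). SC5D was the 1 rise and did not pass without 10 mM replicate 3. For fatty acid synthesis, of the 17 members tested, 2 rose and 9 fell, with a median log2 fold change of -0.30. The 2 rises were 1 without control replicate 2, control replicate 3 or 10 mM replicate 2, and 8 fell in these leave-outs and without 10 mM replicate 3. FASN, the fatty acid synthase, fell from 109 ± 11.0 to 74.5 ± 11.4 FPKM and ACLY, which makes cytosolic acetyl-CoA, from 91.3 ± 6.38 to 65.2 ± 9.62 FPKM. The largest fall was that of ACSS2, which makes acetyl-CoA from acetate (-0.57), and the largest rise that of malic enzyme ME1 (0.35). For complex I of the respiratory chain and ATP synthase, of the 30 members tested, 1 rose and 11 fell, with a median log2 fold change of -0.24. The shares were 3.33% and 36.7%, against 12.1% and 17.5% of all genes. The falls were 8 under median-ratio or upper-quartile scaling, 8 without control replicate 1 or 3 or 10 mM replicate 1 or 3, and 16 without 10 mM replicate 2. ATP5F1B fell from 451 ± 14.5 to 344 ± 30.5 FPKM, and the largest fall was that of NDUFB3 (-0.54), with NDUFV2 (0.47) as the 1 rise.

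Cell division genes fell more uniformly than any other of the 35 lists, with the share given above. For mitosis and the kinetochore, of the 53 members tested, 0 rose and 52 fell, with a median log2 fold change of -1.16, and they took 0.563% to 0.609% of the reads in the control and 0.234% to 0.266% at 10 mM. CDK1, the kinase that starts mitosis, stood at 19.4, 19.0 and 25.0 FPKM in the control libraries and 5.56, 5.97 and 6.91 FPKM at 10 mM 2-DG (log2 fold change -1.62, SE 0.13, adjusted p = 1.81e-05). Its partner CCNA2 fell from 33.4 ± 2.54 to 10.1 ± 1.72 FPKM, the kinase PLK1 from 30.8 ± 1.79 to 10.1 ± 0.255 FPKM and the mitotic kinesin KIF20A from 37.0 ± 2.71 to 11.3 ± 0.656 FPKM. UBE2C, which marks mitotic cyclins for degradation, fell from 188 ± 11.6 to 69.7 ± 9.20 FPKM, and topoisomerase TOP2A from 48.0 ± 6.64 to 16.5 ± 3.02 FPKM. The 1 member that did not pass was NUSAP1, which was listed at 0.136 FPKM in the control. How reads on overlapping genes were counted is not given in the sources used here, so this value and the missed call are uncertain. For DNA replication, of the 43 members tested, 0 rose and 40 fell, with a median log2 fold change of -0.74. The 6 subunits of the MCM helicase all fell, from -0.57 for MCM4 to -1.19 for MCM6, and the sliding clamp PCNA stood at 155, 145 and 151 FPKM in the control libraries and 69.1, 81.0 and 78.5 FPKM at 10 mM 2-DG (log2 fold change -0.97, SE 0.07, adjusted p = 9.98e-06). MCM10 (-1.23) and CDC45 (-1.13), which help to load and form the helicase, were among the largest falls. RPA2 (-0.15) and GINS3 (-0.17) did not pass, and CDC7 (-0.43) passed only without control replicate 1 or 10 mM replicate 3. For nucleotide synthesis, of the 29 members tested, 0 rose and 16 fell, with a median log2 fold change of -0.32. TK1 fell from 88.4 ± 10.9 to 27.7 ± 3.36 FPKM, TYMS from 15.3 ± 1.03 to 4.76 ± 0.515 FPKM and RRM1 from 39.0 ± 1.41 to 15.1 ± 1.30 FPKM, all enzymes of deoxynucleotide supply, whereas GART of purine synthesis (-0.19) and DCTD, which had the highest value (0.15), did not pass.

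Regulators of the G1 phase were less uniform. For G1 cyclins, CDKs and E2F factors, of the 20 members tested, 3 rose and 13 fell, with a median log2 fold change of -0.45. The activators E2F1 and E2F2 and the repressor E2F8 fell, by -1.03, -1.04 and -1.36, while E2F7 rose (0.68), a call that was lost without control replicate 1 or 10 mM replicate 3. CCND1, cyclin D1, fell from 77.4 ± 5.77 to 55.2 ± 6.44 FPKM and CDK2 from 13.0 ± 0.842 to 6.31 ± 0.870 FPKM, whereas CCND2, cyclin D2, rose from 0.516 ± 0.0534 to 1.42 ± 0.132 FPKM. The 3 rises were 1 without control replicate 1 and 1 without 10 mM replicate 3. For CDK inhibitors and p53 targets, of the 19 members tested, 6 rose and 4 fell, with a median log2 fold change of -0.06. In percent, 31.6% rose and 21.1% fell, against 12.1% and 17.5% of all genes. CDKN1A, which encodes p21, stood at 48.2, 43.7 and 42.5 FPKM in the control libraries and 63.5, 68.3 and 58.2 FPKM at 10 mM 2-DG (log2 fold change 0.49, SE 0.08, adjusted p = 0.00165). CDKN2C, which encodes the CDK4 and CDK6 inhibitor p18, moved the other way and stood at 17.0, 16.8 and 16.4 FPKM in the control libraries and 3.74, 4.65 and 5.14 FPKM at 10 mM 2-DG (log2 fold change -1.69, SE 0.10, adjusted p = 3.17e-06). GADD45A rose (0.55), and the p53 targets MDM2 (-0.06) and BBC3 (0.17) did not pass.

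Promoter letters of these falling genes were described in the same way. The cell cycle homology region, bound in quiescent cells by the DREAM complex, was searched as TTTGAA on both strands and found in 33 of 56 windows of the 44 mitosis genes with an entry (58.9%) and in 15.2% of all windows. Overlapping windows of the same gene can share a site. An E2F site, searched as TTTGGCGC on both strands, was found in 7 of 45 windows of the 36 replication genes with an entry (15.6%) and in 0.652% of all windows. The upstream bases of PLK1 (chr16:23678739-23678888, plus strand) and of MCM6 (chr2:135876444-135876623, minus strand, 2 matches) are shown with the matches in capitals, for 1 gene that acts in mitosis and 1 that unwinds DNA.
PLK1: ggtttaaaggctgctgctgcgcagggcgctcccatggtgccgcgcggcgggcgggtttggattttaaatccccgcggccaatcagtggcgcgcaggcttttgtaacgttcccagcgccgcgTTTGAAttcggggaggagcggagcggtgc
MCM6: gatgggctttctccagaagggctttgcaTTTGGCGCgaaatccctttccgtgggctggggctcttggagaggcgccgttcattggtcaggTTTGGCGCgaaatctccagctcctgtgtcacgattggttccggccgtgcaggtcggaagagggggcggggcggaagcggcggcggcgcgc

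**Figure D4:**
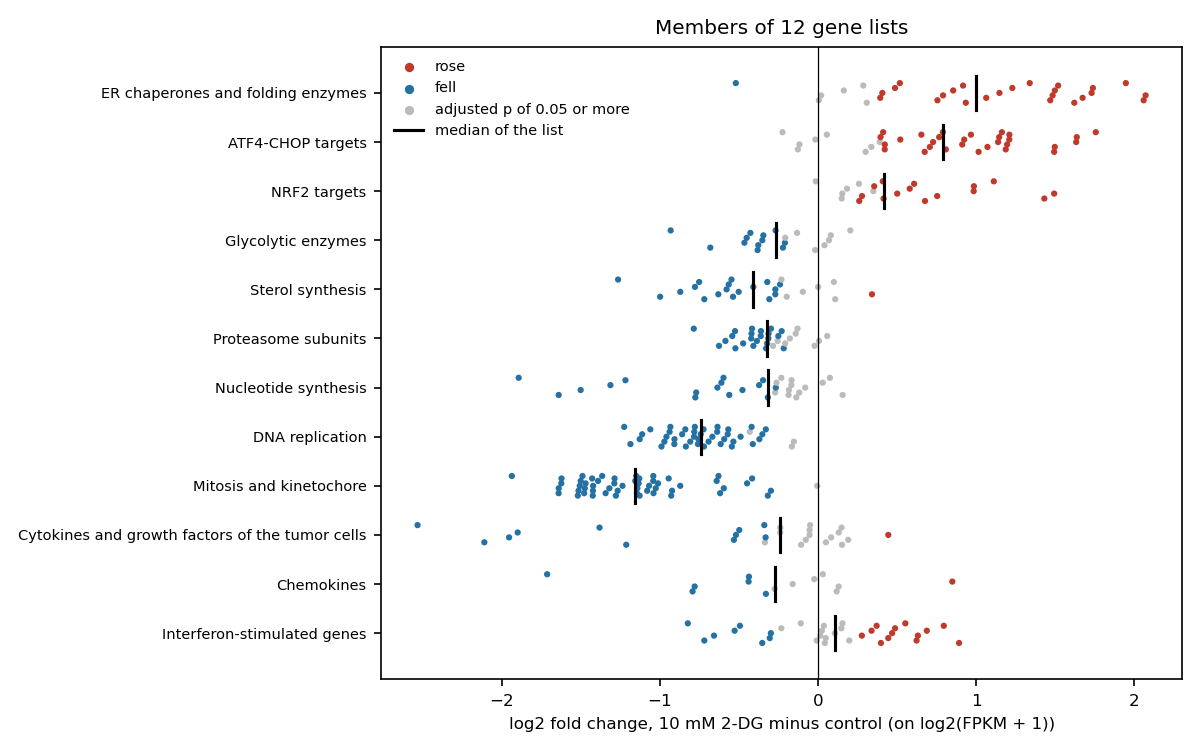
Log2 fold change at 10 mM 2-DG of every tested member of 12 gene lists, red where it rose, blue where it fell and grey where the adjusted p was 0.05 or more, with the list's median as a black bar. Medians run from 1.00 for ER chaperones to -1.16 for mitosis and kinetochore genes, and the cytokine list spreads from -2.53 (IL11) to 0.44 (VEGFC).

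Cytokine genes split into a group with large falls and a majority that did not pass. For cytokines and growth factors, of the 26 members tested, 1 rose and 11 fell, with a median log2 fold change of -0.24. Besides IL11, CSF3, CSF2 and IL6, the inflammatory cytokine IL1B stood at 27.8, 31.7 and 35.5 FPKM in the control libraries and 10.0, 13.3 and 11.3 FPKM at 10 mM 2-DG (log2 fold change -1.38, SE 0.13, adjusted p = 6.47e-05) and IL24 fell from 5.43 ± 0.728 to 1.77 ± 0.276 FPKM. CSF1, a macrophage growth factor, fell from 224 ± 5.50 to 178 ± 3.00 FPKM, and HBEGF, a ligand of the EGF receptor, from 34.8 ± 1.26 to 24.4 ± 1.45 FPKM. VEGFC rose (0.44), the only rise of the list, while VEGFA (0.15), LIF (-0.11) and AREG (0.05) did not pass. Without control replicate 1 or 10 mM replicate 2, 2 members rose. For chemokines, of the 13 members tested, 1 rose and 6 fell, with a median log2 fold change of -0.28. CXCL1, a neutrophil attractant, stood at 70.8, 69.7 and 76.5 FPKM in the control libraries and 16.9, 22.3 and 25.7 FPKM at 10 mM 2-DG (log2 fold change -1.71, SE 0.12, adjusted p = 1.21e-05). CXCL8 fell from 80.8 ± 10.2 to 46.1 ± 5.42 FPKM, CXCL2 (-0.28) passed only without control replicate 2, and CXCL3, of the same subfamily, rose from 8.06 ± 0.971 to 15.3 ± 0.347 FPKM with no overlap of the groups. When only genes at a mean of 1 FPKM or more were tested, 7 members were left and 2 fell.

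An NF-kB site, searched on both strands, was found in 4 of the 10 windows of the 9 chemokine genes with an entry (40.0%) and in 1.91% of all windows. The 4 were CXCL1, CXCL2, CXCL3 and CCL20, which moved in different directions (-1.71, -0.28, 0.85 and -0.78 on the log2 scale). Among the cytokines it was found in 4 of the 25 windows of the 19 genes with an entry (16.0%), which were those of IL6, IL32 and, with 2 windows, IL1RN. The 2 windows of IL1RN overlap and hold the same site. The upstream bases of IL6 (chr7:22727050-22727199, plus strand) and CXCL1 (chr4:73869243-73869392, plus strand) are shown with the match in capitals, since these 2 genes fell strongly.
IL6: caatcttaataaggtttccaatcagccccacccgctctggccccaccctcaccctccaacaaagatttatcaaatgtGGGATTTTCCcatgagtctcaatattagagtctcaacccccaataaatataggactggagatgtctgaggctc
CXCL1: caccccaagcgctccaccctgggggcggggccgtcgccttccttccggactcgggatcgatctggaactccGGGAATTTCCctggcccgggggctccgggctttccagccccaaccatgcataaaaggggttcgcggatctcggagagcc

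The genes of the NF-kB pathway itself moved little. For NF-kB subunits and inhibitors, of the 22 members tested, 3 rose and 6 fell, with a median log2 fold change of -0.07. The shares were 13.6% and 27.3%, against 12.1% and 17.5% of all genes, so the rises were near the background. RELA (0.14), NFKB1 (-0.11) and the inhibitor gene NFKBIA (-0.10) did not pass, BCL3, a nuclear cofactor, fell from 30.4 ± 3.00 to 16.3 ± 2.02 FPKM, and BIRC3, a ubiquitin ligase, fell by a log2 fold change of -0.64. The 3 rises, largest for IKBKG (0.49), were 1 without control replicate 2, control replicate 3 or 10 mM replicate 2. For the genes of IL-17 signaling, the pathway that the study examined, of the 71 members tested, 8 rose and 24 fell, with a median log2 fold change of -0.10. Of its members 11.3% rose, against 12.1% of all genes, and 33.8% fell, against 17.5%, and 7 of the 10 largest falls of the list were cytokines or chemokines named above. The mucin genes MUC5AC (-1.06) and MUC5B (-0.91) also fell from low levels.

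For matrix metalloproteinases and their inhibitors, of the 17 members tested, 3 rose and 4 fell, with a median log2 fold change of 0.01 (17.6% and 23.5%, against 12.1% and 17.5% of all genes). Apart from MMP1, the rises were those of the inhibitors TIMP1, which rose from 308 ± 17.8 to 442 ± 71.1 FPKM, and TIMP4 (0.58), the latter lost without control replicate 1 or 3 or 10 mM replicate 2, while TIMP2 fell from 49.2 ± 1.51 to 34.3 ± 1.23 FPKM and the membrane protease MMP14 fell from 219 ± 2.64 to 177 ± 3.13 FPKM. MMP15 had the largest fall (-0.62). For collagens, integrins and laminins, of the 29 members tested, 5 rose and 8 fell, with a median log2 fold change of -0.18 (17.2% and 27.6%). The laminin chain LAMB3 rose from 144 ± 9.13 to 203 ± 11.6 FPKM and COL8A1 fell from 5.86 ± 0.732 to 2.30 ± 0.0570 FPKM. ITGA2, a collagen receptor subunit, had the largest rise (0.74), a call lost without control replicate 1 or 3 or 10 mM replicate 1 or 3. The rises of this list were fewer in 4 leave-outs, 3 without control replicate 1, 2 without control replicate 3, 2 without 10 mM replicate 1 and 3 without 10 mM replicate 2. Its falls were 10 without control replicate 1, 11 without 10 mM replicate 1 and 6 in each other leave-out. Interferon-stimulated genes split as well: of the 33 members tested, 13 rose and 8 fell, with a median log2 fold change of 0.11 (39.4% and 24.2%). Rises included the RNA sensor IFIH1, from 4.55 ± 0.386 to 9.30 ± 0.590 FPKM, and the IFIT genes IFIT2 (0.62) and IFIT3 (0.49). Falls included BST2, from 211 ± 15.6 to 119 ± 19.1 FPKM, IFITM1 (-0.72) and IFITM2 (-0.66), and the abundant ISG15 (0.15) did not pass.

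Antioxidant genes under NRF2 rose or did not pass. For this list, of the 21 members tested, 15 rose and 0 fell, with a median log2 fold change of 0.41. AKR1C1, an aldo-keto reductase, stood at 2.80, 2.57 and 2.78 FPKM in the control libraries and 9.27, 9.30 and 8.50 FPKM at 10 mM 2-DG (log2 fold change 1.43, SE 0.13, adjusted p = 4.62e-05), but the AKR1C genes are close copies of each other and may share reads. HMOX1, heme oxygenase, rose from 15.3 ± 0.943 to 31.4 ± 3.38 FPKM, and GCLC, the first enzyme of glutathione synthesis, from 3.25 ± 0.363 to 5.80 ± 0.768 FPKM. PRDX1, a peroxiredoxin, had the lowest value (-0.01) and did not pass. SLC7A11 and the ferritin genes belong to this list too, SLC7A11 as its largest rise, so part of its count is shared with genes described above. Cytosolic heat shock proteins did not follow the ER chaperones: of the 19 members tested, 1 rose and 11 fell, with a median log2 fold change of -0.19. HSPB1 fell from 291 ± 33.1 to 184 ± 24.1 FPKM and HSP90AA1 from 323 ± 24.8 to 227 ± 18.2 FPKM. HSPA1A (-1.04) and HSPA1B (-0.78) are near-identical copies, so the division of reads between them is uncertain. Without control replicate 3 or 10 mM replicate 1, 7 members fell, and 6 fell under median-ratio or upper-quartile scaling. The 1 rise, that of DNAJB4, was lost without control replicate 1, control replicate 2, 10 mM replicate 1 or 10 mM replicate 3. For proteasome subunits, of the 31 members tested, 0 rose and 22 fell, with a median log2 fold change of -0.32. PSMC3, an ATPase of the regulatory particle, had the largest fall (-0.79) and the core subunit PSMB1 fell from 119 ± 5.99 to 79.4 ± 9.70 FPKM. PSMB7 (0.06) had the highest value and did not pass. For autophagy and lysosome genes, of the 34 members tested, 11 rose and 4 fell, with a median log2 fold change of 0.07. The shares were 32.4% and 11.8%, against 12.1% and 17.5% of all genes. The cathepsin gene CTSL rose from 40.9 ± 2.34 to 77.4 ± 4.97 FPKM, MAP1LC3B, the LC3 protein of autophagosomes, from 22.1 ± 1.96 to 40.6 ± 0.959 FPKM and the cargo receptor SQSTM1 from 179.9 ± 6.14 to 263 ± 19.0 FPKM. The rises were 7 without control replicate 2, and the 4 falls were 1 or 2 when control replicate 1, 2 or 3 or 10 mM replicate 1 or 3 was left out.

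The lists described next had medians from -0.05 to 0.18 on the log2 scale. Of hypoxia-inducible genes 27.3% rose and 13.6% fell, against 12.1% and 17.5% of all genes. The list of AP-1 and immediate early factors leaned to rises, with 30.4% and 8.70%. For cell death regulators the shares were 10.3% and 13.8%, and for ribosomal proteins 1.92% and 0%. For hypoxia-inducible genes, of the 22 members tested, 6 rose and 3 fell, with a median log2 fold change of 0.12, with LOX at 0.51 and NDRG1 at 0.37 among the rises and HK2, described above, and CA9 (-0.40) among the falls. For AP-1, MAX network and immediate early factors, of the 23 members tested, 7 rose and 2 fell, with a median log2 fold change of 0.18, with MXD1, which competes for the partner MAX, at 1.13 EGR1 at 0.98 and FOSL2, the largest fall, at -0.67. For cell death regulators, of the 29 members tested, 3 rose and 4 fell, with a median log2 fold change of -0.05, with the death receptor gene TNFRSF10A (0.36) among the rises and BCL2A1 (-0.87) among the falls, and 1 rise was left without control replicate 1, control replicate 2, 10 mM replicate 1 or 10 mM replicate 3. For cytosolic ribosomal proteins, of the 52 members tested, 1 rose and 0 fell, with a median log2 fold change of 0.09. RPL12 (0.57) was the 1 rise, and RPS21 had the lowest value (-0.20) and passed only without 10 mM replicate 2. These short genes took 4.09% to 4.77% of the reads in the control libraries and 4.19% to 5.45% at 10 mM, lowest in replicate 1 and highest in replicate 2, the pair that also differed by gene length. Without 10 mM replicate 1, 10 members rose, and without 10 mM replicate 2, 2 fell. The part of the length difference in these counts was not tested.

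The 14 lactate-responsive genes (LRGs) were chosen by the study in part on these samples, so their changes here are no independent evidence. At 10 mM 2-DG, of the 14 members tested, 2 rose and 9 fell, with a median log2 fold change of -0.16. Most of these genes are low, and the median was -0.76 with a pseudocount of 0.1 and -1.31 with limma-voom on the recovered reads, with 3 that rose and 10 that fell in both. The rises were OLAH and CDH15, and OLAH, a thioesterase of fatty acid synthesis, stood at 0.0844, 0.105 and 0.0375 FPKM in the control libraries and 0.817, 0.766 and 0.661 FPKM at 10 mM 2-DG (log2 fold change 0.70, SE 0.09, adjusted p = 0.000306). CDH15, which encodes M-cadherin, rested on 1, 2 and 2 recovered reads in the control libraries and 35, 36 and 38 at 10 mM. CSF3 is described above, and MUC5AC, a gel-forming mucin, stood at 1.35, 1.69 and 1.39 FPKM in the control libraries and 0.287, 0.128 and 0.158 FPKM at 10 mM 2-DG (log2 fold change -1.06, SE 0.07, adjusted p = 9.79e-06). EBI3, a subunit of IL-27 and IL-35, stood at 1.19, 1.35 and 1.35 FPKM in the control libraries and 0.498, 0.546 and 0.718 FPKM at 10 mM 2-DG (log2 fold change -0.53, SE 0.07, adjusted p = 0.000538). For these 3 genes the groups were separate. HMGN5, SALL2, C1QL1, CDK15, CLIC5 and CCL2 also fell, each under 1 FPKM in the control mean. For CCL2 the groups overlapped, with 57, 45 and 69 reads in the control and 10, 51 and 20 at 10 mM, and the call was lost in 4 of the 6 leave-outs (without control replicate 1 or 3 or 10 mM replicate 1 or 3). The call for CDK15 was lost without control replicate 1 or 2 or 10 mM replicate 1 or 3, that for CLIC5 without control replicate 1 or 10 mM replicate 2 and that for C1QL1 without control replicate 3. SPX, EFCAB8 and CTTNBP2 did not pass (adjusted p = 0.0784, 0.208 and 0.114), with 11, 7 and 51 reads over the control libraries and 63, 37 and 17 at 10 mM. SPX and CTTNBP2 overlap exons of other genes on the opposite strand.

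The lower dose was set beside 20 mM 2-DG to show where it differed. Between the doses 0 of 16572 genes passed limma's test after adjustment, and 1139 (6.87%) had an unadjusted p under 0.05. Limma-voom on the recovered reads also called 0. The comparison of each dose with the control uses the same 3 control libraries, so the values are given side by side only. Mitosis and kinetochore genes had medians of -1.16 (10 mM) and -1.58 (20 mM) on the log2 fold change scale, and 40 of the 53 were lower at 20 mM at an unadjusted p under 0.05, against 4.13% of all genes. DNA replication genes had medians of -0.74 and -0.84, sterol synthesis genes -0.41 and -0.58, and ER chaperones 1.00 and 1.08. Glycolytic enzymes had nearly equal medians, -0.27 and -0.29. For the proteasome the median was -0.32 at 10 mM and -0.28 at 20 mM. Interferon-stimulated genes had medians of 0.11 and 0.03, and 11 of the 33 were lower at the higher dose at an unadjusted p under 0.05.

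The genes with the smallest unadjusted p between the doses were, on the lower side at 20 mM, KIF2C, CSF3, PBK, ZC3H12A and IL6. KIF2C, a microtubule-depolymerizing kinesin, stood at 48.7, 46.7 and 48.8 FPKM in the control libraries, 16.8, 16.7 and 18.4 FPKM at 10 mM and 11.7, 13.3 and 11.3 FPKM at 20 mM 2-DG, with an unadjusted p of 4.32e-05 and an adjusted p of 0.11 between the doses. ZC3H12A, an RNase that degrades cytokine transcripts, stood at 36.8, 35.4 and 36.5 FPKM in the control libraries, 19.8, 23.3 and 24.0 FPKM at 10 mM and 15.2, 15.3 and 16.3 FPKM at 20 mM 2-DG. The 3 groups were separate for both genes. PBK, a mitotic kinase, had log2 fold changes of -1.39 and -2.01 against the control, IL6 of -1.90 and -2.43 and CSF3 of -2.11 and -2.80. On the higher side were OLAH, CDH15, MMP1, PPM1N and SPATA25. For MMP1 the log2 fold changes were 1.79 and 2.27. SPATA25 stood at 0.304, 0.147 and 0.511 FPKM in the control libraries, 0.230, 0.297 and 0.274 FPKM at 10 mM and 0.653, 1.02 and 1.02 FPKM at 20 mM 2-DG, and PPM1N at 0.281, 0.231 and 0.168 FPKM in the control libraries, 0.175, 0.197 and 0.235 FPKM at 10 mM and 0.521, 0.560 and 0.395 FPKM at 20 mM 2-DG. For these 2 genes the 10 mM libraries lay within or across the control range and neither passed at 10 mM. IL11 had reached nearly the same level at the lower dose, with 3.66, 3.48 and 3.07 FPKM at 10 mM and 3.54, 3.50 and 2.56 FPKM at 20 mM, and its unadjusted p between the doses was 0.525. A p that misses the threshold does not show that the doses act alike.

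**Figure D5:**
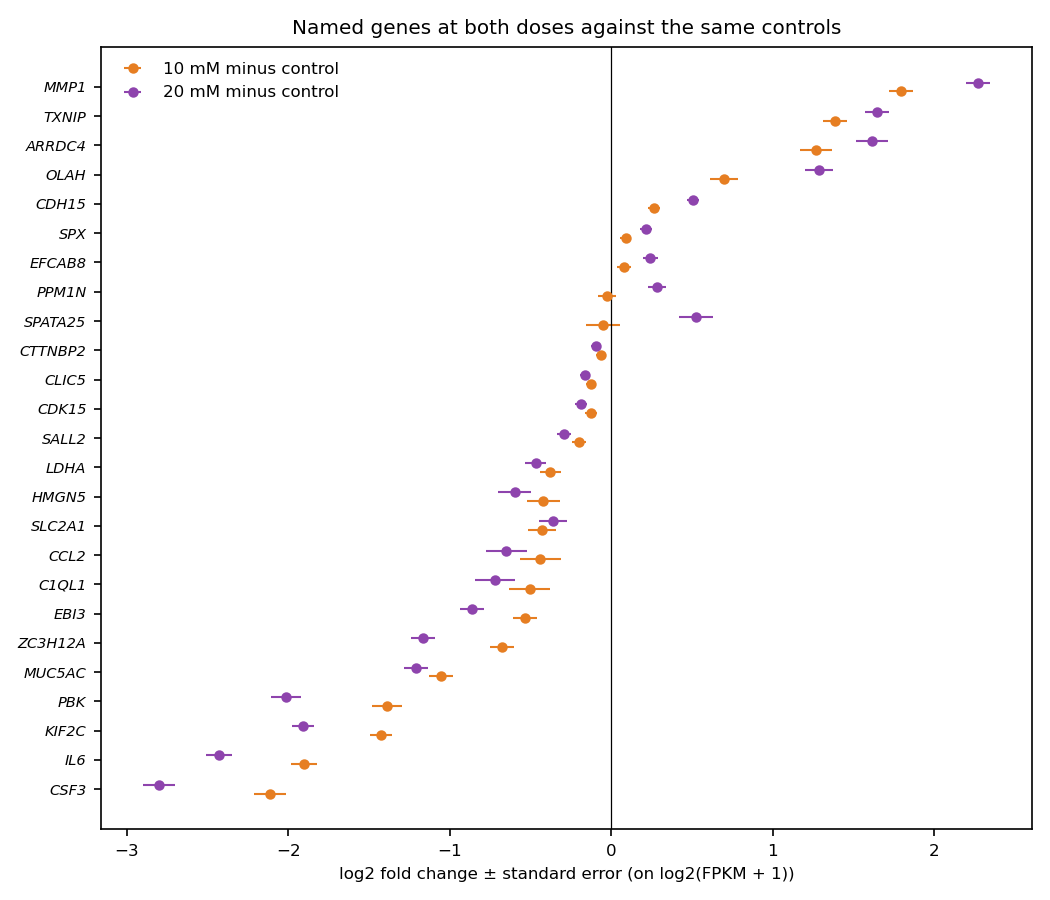
Log2 fold change with its standard error at 10 mM (orange) and 20 mM 2-DG (purple), each against the same 3 control libraries, for the 14 LRGs, SLC2A1, LDHA, TXNIP, ARRDC4 and the genes with the smallest unadjusted p between the doses. PPM1N and SPATA25 lie near 0 at 10 mM and above 0 at 20 mM; none of the differences between the doses passed adjustment.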

How the data were processed

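RNA was sequenced from 9 libraries of MDA-MB-231 cells, of which the 6 at 0 and 10 mM 2-DG are described here. The authors deposited 1 table of FPKM values per library (GRCh38 per the labels), and the aligner, the counter, its use of strand and the annotation release are not given in the sources used here. Gene names outside the files came from GENCODE 29. Each FPKM value was multiplied back to whole reads, which was possible for all 32806 genes above 0 (tolerance 0.01). Of 61552 genes listed, 16572 with at least 10 reads in 3 libraries and 15 in all were tested. Log2(FPKM + 1) of all 9 libraries was fitted with limma 3.58.1 in R 4.3.3 with a variance trend (limma-trend), and p-values were adjusted over all genes by the Benjamini-Hochberg method, with a two-sided threshold of 0.05. The pseudocount understates fold changes of low genes. On simulated counts for 10 mM against control over the 16572 genes, 97% of log2 changes of 1 and 100% of those of 2 were recovered, and 12 unchanged genes were called. The changed genes were drawn only from genes with more reads than the filter asks for. Every gene was given the same added spread, and no deviation by gene length was simulated. The shares recovered therefore do not hold for low genes or for replicates that differ by gene length. No 2 libraries agreed within sampling noise.

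Named genes were, per direction, the 10 protein-coding genes with the largest change and the 5 with the highest level past 0.58 on the log2 scale among those that passed without overlap of the groups, the LRGs, SLC2A1, LDHA, TXNIP and ARRDC4, the largest rise and fall of each gene list with other members by role, and, per direction, the 5 with the smallest p between the doses. Some genes that meet these rules are not reported here. The 35 lists matched 958 of 959 symbols. The gene set, lists and tests were chosen with earlier results of these data known. Promoter windows were read from RefSeq (GRCh38.p14). Python 3.11.15 with pandas 2.3.3, numpy 2.4.6 and matplotlib 3.10.9 was used for counts and plots. The alternatives were another pseudocount, median-ratio and upper-quartile scaling, 2 other filters, a fit of the 6 libraries, the replicate number as a block, each of these 6 libraries left out, limma-voom on the recovered reads and limma without the variance trend.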

Additional observations from a re-analysis of the deposited data

How the results depend on the processing

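The counts at an adjusted p under 0.05 stayed within 1.5 times of 2011 rises and 2903 falls under all 15 alternatives, from 1412 and 2213 when every gene above 0 in any library was tested to 2481 rises under upper-quartile scaling and 3024 falls with limma-voom. DEGs were 438 higher and 566 lower with a pseudocount of 0.1, and 730 higher and 857 lower with limma-voom on the recovered reads, in place of 96 and 192, since both settings give low genes larger log2 fold changes. Between 20 mM and 10 mM, 3 genes were lower when every gene above 0 was tested, and leaving out 1 of the 6 control and 10 mM libraries gave 0 to 1 higher and 0 to 3 lower, the 1 and the 3 without 10 mM replicate 1 (no 20 mM library was left out). The fit of the 6 libraries gives no comparison between the doses. Leaving out each of the 6 libraries in turn gave 1505 to 2043 rises, 2343 to 2843 falls, 99 to 104 higher and 189 to 216 lower DEGs.

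Of 228 named genes, 192 kept their side of the threshold under every alternative, and of all their values 3278 did, while 82 no longer passed, 33 passed anew and 0 changed direction past the threshold. Of 525 list medians, 458 moved by less than the SD of the list's median difference from control over the 3 libraries at 10 mM. The test of every gene above 0, the fit of the 6 libraries, the replicate block and the fit without the variance trend leave log2 fold changes unchanged. List medians could not move under these settings, so the count of 458 overstates how stable the medians were. The sign of the median changed for the pentose phosphate pathway (to 0.00 under upper-quartile scaling, 0.01 with genes of at least 1 FPKM, 0.07 without control replicate 1 and 0.02 without 10 mM replicate 3), for metalloproteinases and TIMPs (-0.04 with genes of at least 1 FPKM), cell death regulators (0.01 under upper-quartile scaling) and ribosomal proteins (-0.00 without 10 mM replicate 2), all close to 0. The cause of these changes was not tested.

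The replicate numbers showed no clear pairing of the libraries. This check cannot exclude pairing, because deviations linked to gene length also enter the correlations. The highest were 0.52 for control replicate 1 with 10 mM replicate 2 and 0.49 for control replicate 2 with 10 mM replicate 1. In both of these pairs the long genes deviated in the same direction. Deviations from the group mean correlated at -0.40, -0.41 and 0.29 between control and 10 mM libraries of the same number, and only control replicate 3 correlated best with its own number. With the replicate number as a block, 1754 genes rose and 2552 fell, with 96 higher and 191 lower DEGs and 0 genes between the doses.

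At 34300991 to 40843638 reads a library, a gene of 1 kb at 0.1 FPKM rests on a few reads, and changes of such genes on log2(FPKM + 1) stay near 0 whatever their fold.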

Other observations

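Among genes not typed as protein-coding, rises were at least as frequent as falls at 10 mM 2-DG in each of the 5 classes counted. The shares that fell were under the 17.5% of all genes in each class. The shares that rose were under the 12.1% of all genes in each class but that of processed transcripts. Of 920 antisense RNA genes 106 rose (11.5%) and 67 fell (7.28%), and of 724 long intergenic RNA genes 78 rose (10.8%) and 65 fell (8.98%). Of 161 genes typed as processed transcripts 31 rose (19.3%) and 8 fell (4.97%). Of 568 processed pseudogenes 45 rose (7.92%) and 30 fell (5.28%), and of 1086 genes of the remaining types 122 rose (11.2%) and 82 fell (7.55%). The median levels of these classes were 0.260 to 0.935 FPKM, against 4.02 FPKM for protein-coding genes, of which 1629 of 13113 rose and 2651 fell, so the classes differ in level as well as in type, and the part of level in these counts was not tested. SLC9A3-AS1, named after its values were seen, stood at 2.05, 2.73 and 2.18 FPKM in the control libraries and 6.48, 6.63 and 5.42 FPKM at 10 mM (log2 fold change 1.11, limma adjusted p = 5.16e-05), with no overlap of the groups. TLR8-AS1, chosen in the same way, stood at 3.84, 4.29 and 3.93 FPKM and 8.59, 10.3 and 8.45 FPKM (log2 fold change 1.01, adjusted p = 4.22e-05). Whether reads were assigned by strand is not given in the sources used here, so reads from an antisense gene and its partner cannot be told apart.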
